A study of Mus musculus with 38 samples.

Results

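Hypothalamic RNA of BACHD mice was compared with that of wild-type (WT) mice at 2 months of age. The study calls this age an early disease stage. BACHD mice carry a bacterial artificial chromosome with the full-length human huntingtin gene (HTT) with 97 CAG repeats, expressed ubiquitously, and the WT mice were their littermates without the transgene. All mice were females of the FVB/N strain, untreated and fed standard chow, and each array held the RNA of 1 dissected hypothalamus. The comparison used the 6 arrays labelled BACHD and the 6 labelled WT at 2 months, 12 of the 38 arrays of the series, with the replicate numbers 1, 2, 3, 4, 5 and 7 in each group. The other arrays hold mice injected with viral vectors and BACHD and WT mice at 10 months, of which only the 8 arrays at 10 months (5 BACHD and 3 WT) were used here. All 34,760 probe sets of the array were tested, and a gene stands for the probe set with the highest mean over the 12 arrays among those with 1 symbol, which gave 19,937 genes. The choice of arrays and probe sets used no difference between the groups.

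The hypothalamus controls feeding, body temperature, reproduction and the pituitary through neurons that release peptides. Huntington's disease is caused by a long CAG repeat in huntingtin, and BACHD mice are known to gain weight. Several of the RNAs described below are small non-coding RNAs. Small nucleolar RNAs (snoRNAs) guide chemical modification of ribosomal RNA. The box C/D type (Snord genes) guides ribose methylation, the box H/ACA type (Snora genes) guides pseudouridylation, and most are cut out of the introns of host genes, many of which encode ribosomal proteins.

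No probe set passed an adjusted p of 0.05 between BACHD and WT at 2 months with limma and Benjamini-Hochberg adjustment over all 34,760 probe sets, where the smallest adjusted p was 0.841. At an unadjusted limma p under 0.05, 1119 probe sets were lower in BACHD (3.22% of all tested) and 303 were higher (0.872%). These 1422 probe sets are fewer than the 1738 that 5% of all tests would give. Over genes, 441 were lower (2.21%) and 126 higher (0.632%), with a smallest adjusted p of 0.939. In what follows, a gene is called lower or higher on this unadjusted p alone, and none of these calls passed the adjustment. A median 95% confidence interval reached 0.187 log2 units to either side of a difference over probe sets.

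The surplus of lower over higher calls depended on how the arrays were scaled. The median over all probe sets lay between 7.16 and 7.29 on the BACHD arrays and between 7.16 and 7.41 on the WT arrays, where WT replicates 1 and 2 had the highest medians, 7.35 and 7.41. Higher probe sets made up 21.3% of the calls on the deposited values, 51.4% (712 higher and 673 lower) after each array was centred on its median, and 53.7% (908 and 783) after the 12 arrays were quantile normalized again. They made up 39.8% with limma's array weights and 60.8% (520 and 335) without WT replicates 1 and 2. No direction of the majority of calls can therefore be given, and differences are given below on the deposited values, with the scaling named where it turns them. Without WT replicate 4 the calls numbered 2836, of which 2398 were lower, and without WT replicate 1 they numbered 890. The 12 arrays correlated with each other at 0.985 to 0.996.

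**Figure D1:**
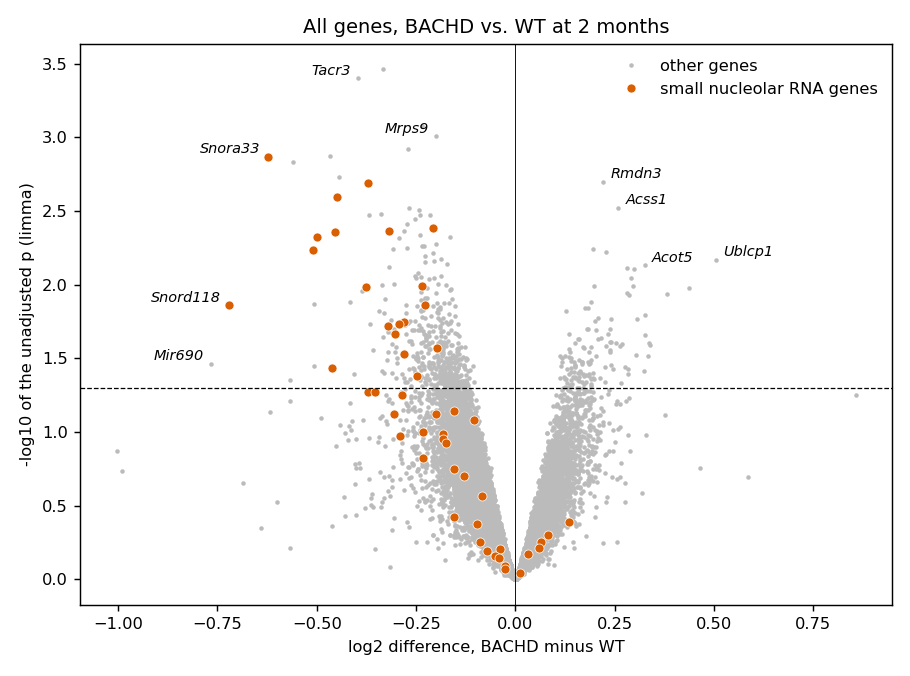
Each point is 1 of 19,937 genes, with the log2 difference BACHD minus WT at 2 months on the x axis and minus log10 of the unadjusted limma p on the y axis, snoRNA genes in orange. The dashed line marks an unadjusted p of 0.05, past which lie 441 genes on the lower side and 126 on the higher side of the deposited values, a split that turned to 218 lower and 374 higher after array median centring.

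Serpinb6b, a serine protease inhibitor of the clade B serpins, had the smallest p of the lower genes. Its log2 level was 6.23, 6.34 and 6.46 (lowest, median and highest of 6) in BACHD and 6.56, 6.65 and 6.89 in WT, so that the groups did not overlap. The difference was -0.33 (SE 0.0693), or 0.794 times the WT level, with an exact two-sided permutation p of 0.00216, which is the smallest that 6 against 6 arrays can give. The exact p of single genes here and below are not adjusted over genes. Close relatives of Serpinb6b in the mouse genome may share its probes.

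Tacr3, the receptor of neurokinin B, a peptide of the neurons that drive gonadotropin release, came next. It lay at 8.31, 8.44 and 8.54 in BACHD and at 8.51, 8.88 and 9.03 in WT. Only WT replicate 5, at 8.51, fell within the BACHD range. The difference was -0.40 (SE 0.0842; 95% interval -0.58 to -0.22), a level 0.760 times that of WT, with an exact permutation p of 0.00649. Its unadjusted limma p stayed under 0.05 in every alternative run.

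Lamtor4, a subunit of the Ragulator complex that anchors mTORC1 signalling at lysosomes, was also lower, at 0.849 times the WT level. It had 10.22, 10.29 and 10.43 in BACHD against 10.42, 10.56 and 10.62 in WT, a difference of -0.24 (SE 0.0546). The highest BACHD array just overlapped the lowest WT array. Mrps9, a protein of the small subunit of mitochondrial ribosomes, had 8.02, 8.08 and 8.15 in BACHD and 8.20, 8.29 and 8.36 in WT. These groups did not overlap, and the difference was -0.20 (SE 0.0473). Mrgprb13, a Mas-related G protein-coupled receptor, was at a low level, with 5.52 to 5.87 in BACHD and 5.88 to 6.10 in WT (difference -0.27, SE 0.0658).

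**Figure D2:**
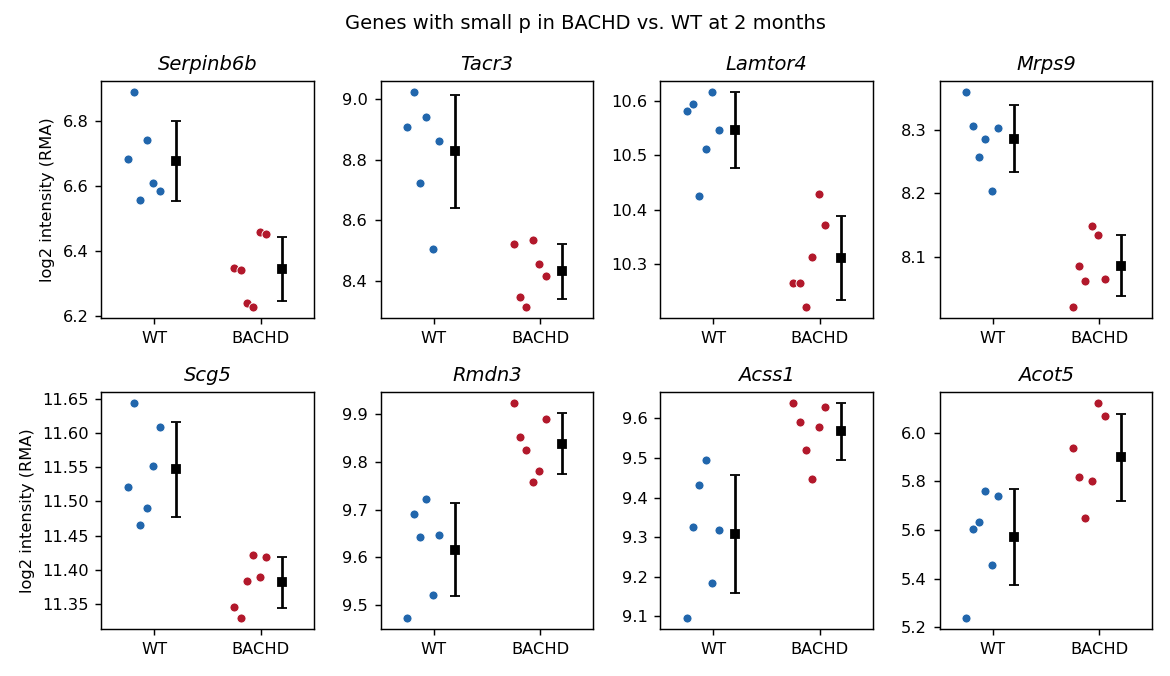
Log2 level of 8 genes on each of the 12 arrays at 2 months, with points for arrays and squares with bars for the mean ± SD of the 6 BACHD and the 6 WT arrays. Serpinb6b, Mrps9, Scg5 and Rmdn3 show no overlap between the groups, whereas Tacr3, Lamtor4, Acss1 and Acot5 overlap at 1 or more arrays.

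Groups that did not overlap were found in 15 lower genes (0.0752% of all genes) and in 4 higher genes (0.0201%). The lower ones included Serpinb6b, Mrps9 and Mrgprb13, the secretory protein gene Scg5, the snoRNA genes Snord53 and Snord55, Psmd4, which is a ubiquitin receptor of the proteasome, and Rpl23a of the large ribosomal subunit. The higher ones were Rmdn3, Chn2, Morc4 and Vps37a, and Snord53, Chn2, Morc4 and Vps37a were named after their values were seen. If the labels of the arrays were exchangeable, a gene would separate fully in either direction with a probability of 0.00216 (924 arrangements). The observed shares lie below this, so a lack of overlap alone does not mark a gene as changed.

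Rmdn3, an outer mitochondrial membrane protein that ties mitochondria to the endoplasmic reticulum, had the smallest p of the higher genes. It lay at 9.76, 9.84 and 9.92 in BACHD and at 9.47, 9.65 and 9.72 in WT, a difference of 0.22 (SE 0.0576). Acss1, which makes acetyl-CoA from acetate in mitochondria, lay at 9.45, 9.59 and 9.64 against 9.10, 9.32 and 9.50. Its difference was 0.26 (SE 0.0713), and 1 BACHD array fell below the highest WT array. Flot2, a membrane scaffold protein, and Sec11a, a catalytic subunit of signal peptidase, were higher by 0.19 (SE 0.0590) and 0.23 (SE 0.0700).

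Larger differences among the higher calls came with a wider spread. Ublcp1, a phosphatase that acts on the proteasome, was higher by 0.50 (SE 0.157), with 6.75 to 7.34 in BACHD and 6.14 to 7.0 in WT. Uprt, a homolog of uracil phosphoribosyltransferase, was higher by 0.44 (SE 0.147), and its WT arrays ran from 9.36 to 10.44 around a median of 10.05. The groups of both genes overlapped. Acot5, a peroxisomal acyl-CoA thioesterase of the mouse, had 5.65, 5.88 and 6.12 in BACHD and 5.24, 5.62 and 5.76 in WT (difference 0.33, SE 0.103). Acot genes are close copies of each other and may share probes. With the mean snoRNA level of each array as a covariate, Serpinb6b, Lamtor4, Rmdn3, Acss1 and Acot5 lost their calls, and 5 of 80 named calls remained. This level, described next, almost separates the groups, so adding it widens the error of any group difference. The losses therefore cannot show whether these genes are linked to snoRNA levels, which was not tested.

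Of the lists and families examined, the snoRNA genes had the largest share of lower calls. Of 51 measured, 20 were lower (39.2%, against 2.21% of all genes) and 0 higher at an unadjusted limma p under 0.05, none passed the adjustment, and 45 of the 51 differences were below zero. Their median difference was -0.208, against -0.027 over all genes. The 13 thalamus markers, none of them called, had a larger median difference of -0.268. Of the 31 Snord genes 11 were lower, with a median of -0.183, and of the 20 Snora genes 9 were lower, with all 20 differences below zero and a median of -0.297. The class was noticed in earlier results of these data, so these counts are a description.

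Snora33 had the largest difference of the snoRNA genes with a p among the 10 smallest of all lower genes. It lay at 6.49, 6.63 and 6.86 in BACHD and at 6.82, 7.24 and 7.84 in WT, a difference of -0.62 (SE 0.154) with an exact permutation p of 0.00433. Of the WT arrays only replicate 4, at 6.82, fell within the BACHD range. Snord118, the U8 snoRNA needed for maturation of the large-subunit ribosomal RNAs, lay at 6.98, 7.32 and 7.81 in BACHD and at 7.39, 7.89 and 8.99 in WT. Its difference was -0.72 (SE 0.254), and WT replicates 1 and 5, at 8.65 and 8.99, were the highest. Snord55 was tighter, with 8.75, 8.84 and 8.89 against 8.91, 9.03 and 9.17, no overlap, and a difference of -0.21 (SE 0.0599). Snord15b and Snora73b were lower by 0.37 (SE 0.0968) and 0.45 (SE 0.121). The probes of Snora73b may not tell it from its near-identical copy.

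The mean log2 level over the 51 snoRNA genes was 7.912, 7.827, 7.851, 7.879, 7.935 and 8.022 on BACHD arrays 1, 2, 3, 4, 5 and 7. On the WT arrays of the same numbers it was 8.277, 8.157, 8.015, 7.992, 8.176 and 8.107. BACHD replicate 7 was above WT replicates 3 and 4, and every other BACHD array was below every WT array. The number of lower snoRNA genes was 16 after array median centring, 17 after quantile normalization, 15 with array weights, 23 with the thalamus marker score as a covariate and 12 without WT replicates 1 and 2. In the same settings and order, 1.09%, 1.52%, 1.39%, 1.66% and 0.542% of all genes were lower. In each of them 0 snoRNA genes were higher, so the direction did not turn with the scaling. With 1 array left out at a time, 16 to 25 were lower.

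**Figure D3:**
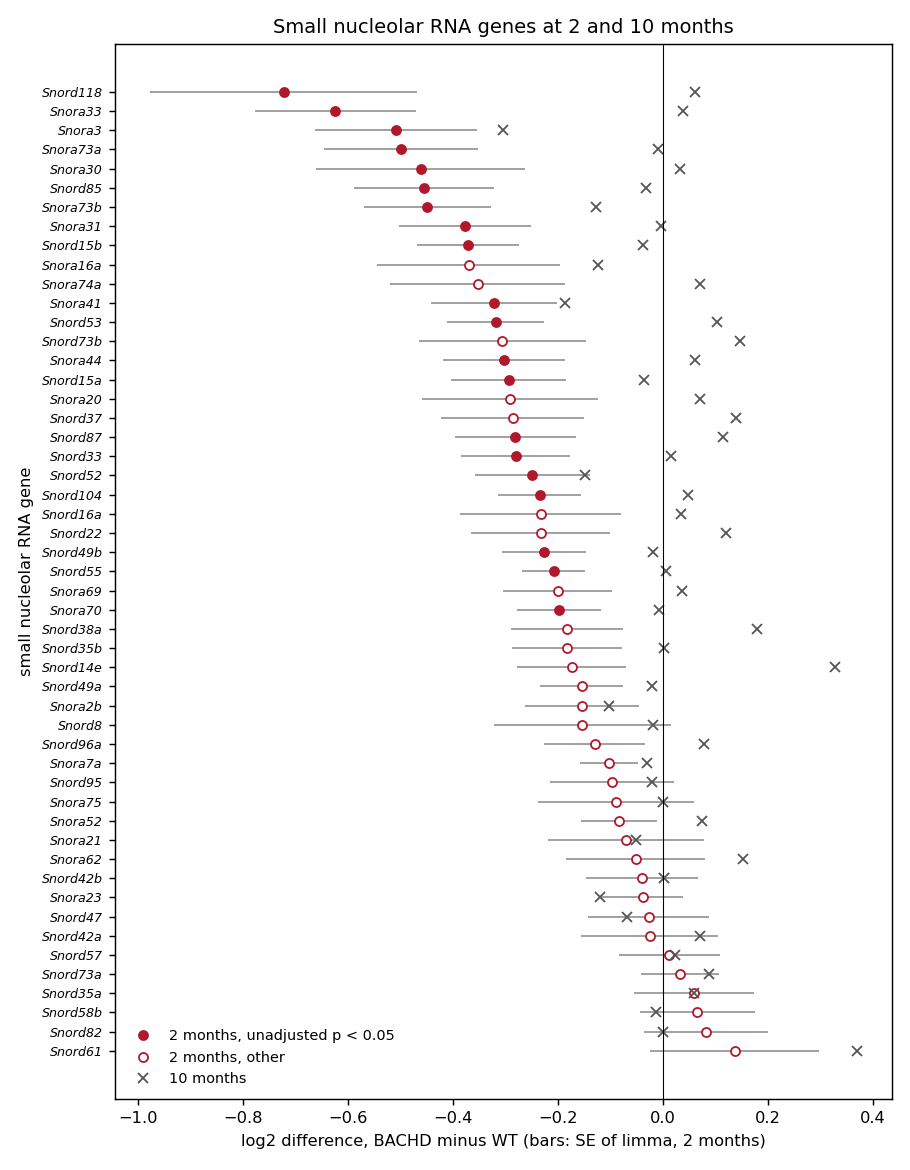
Log2 difference BACHD minus WT of the 51 snoRNA genes, with circles and bars for the value and SE at 2 months and crosses for the value at 10 months. At 2 months 45 of 51 lie below zero around a median of -0.208, and at 10 months 23 of 51 do around a median of 0.006.

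The host genes of the snoRNAs had a median difference closer to zero than the snoRNA genes within them. In the RefSeq annotation of GRCm38.p6, 50 of the 51 snoRNA genes lie inside another gene (strand was not considered), and 29 of them lie in 25 hosts that were measured. Of the 25 hosts 4 were lower, a larger share than the 2.21% of all genes, and 0 higher. Their median was -0.051, against a median of -0.174 for the 29 snoRNA genes within them. Of the 10 lower snoRNA genes with a measured host, 2 had a lower host, which were Snora33 in the ribosomal protein gene Rps12 (-0.18) and Snord53 in Wdr43 (-0.24). Snora3 was at -0.51 and its host Rpl27a at 0.06, and Snord15a and Snord15b were at -0.29 and -0.37 and their host Rps3 at -0.04. The reverse was seen in Rpl23a, which was at -0.15 with its snoRNAs Snord42a and Snord42b at -0.03 and -0.04. It was also seen in Rpsa, the lowest of the measured hosts, at -0.27 with Snora62 at -0.05. The call of Snora3 was lost when all of its probe sets were averaged.

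Other structured small RNAs were examined after the snoRNA values had been seen. Of these, n-R5s136, Rnu12 and Rny1 were among the 10 lower genes with the smallest p, and their low values follow from that choice. Rny3, Rn7sk and Rmrp were added for their kind. n-R5s136, a 5S ribosomal RNA gene, lay at 9.41, 9.62 and 9.93 in BACHD and at 9.82, 10.11 and 10.36 in WT (difference -0.47, SE 0.115). Rnu12, the U12 RNA of the minor spliceosome, lay at 7.52, 7.77 and 7.95 against 7.89, 8.41 and 8.72 (-0.56, SE 0.140). Rny1, a Y RNA that binds the Ro60 protein, lay at 9.97, 10.39 and 10.67 against 10.60, 10.80 and 11.06 (-0.44, SE 0.114). In each of these genes the highest BACHD array overlapped the lowest WT arrays. Not all RNAs of this kind were lower. The Y RNA gene Rny3 was at -0.04 (SE 0.0433), the 7SK gene Rn7sk at -0.01 (SE 0.0408), and Rmrp, the RNA of RNase MRP, at -0.18 (SE 0.1001), none of them called. By the biotypes of the reference annotation, 375 of 18,555 protein-coding genes were lower (2.02%), 17 of 675 long non-coding RNA genes (2.52%) and 2 of 7 small nuclear RNA genes.

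Of 296 microRNA genes (host genes left out) 12 were lower (4.05%, against 2.21% of all genes) and 2 higher, and the number of lower ones ran from 4 to 40 with 1 array left out, with 40 without WT replicate 4. The array reads the region of the microRNA gene, and its probe sets do not tell the mature microRNA from its precursor. The mature sequences of 3 of the lower genes are shown because Mir6516 had the smallest p of the microRNA genes and Mir690 and Mir505 the largest differences. They are RefSeq sequences on GRCm38.p6, 5′ to 3′, with the seed (bases 2 to 8) in capitals, at chr11:117077412-117077433 and chr11:117077370-117077391 on the plus strand for Mir6516, chr16:28599940-28599961 on the minus strand for Mir690, and chrX:60394416-60394437 and chrX:60394451-60394473 on the minus strand for Mir505.
mmu-miR-6516-3p: uCAUGUAUgauacugcaaacag
mmu-miR-6516-5p: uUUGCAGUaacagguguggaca
mmu-miR-690: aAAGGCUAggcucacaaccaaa
mmu-miR-505-3p: cGUCAACAcuugcugguuuucu
mmu-miR-505-5p: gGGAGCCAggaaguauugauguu
None of these 5 seeds is shared with another of them. Mir6516 lay at 7.83, 7.98 and 8.01 in BACHD and at 7.98, 8.17 and 8.23 in WT (difference -0.20, SE 0.0594). Mir690 lay at 5.85, 6.57 and 7.42 against 6.48, 7.25 and 8.25, a difference of -0.77 (SE 0.325) in which the groups overlapped widely and the exact permutation p was 0.0714. Mir505 was likewise wide, at 7.60 to 9.01 against 8.21 to 9.35 (-0.57, SE 0.255), with an exact permutation p of 0.0801. With 1 array left out, the call of Mir690 was lost in 6 and that of Mir505 in 7 of 12 fits. Both were also lost without WT replicates 1 and 2.

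Genes of protein synthesis, respiration and protein breakdown had calls in 1 direction only, at shares that depended on scaling. Of 57 ribosomal protein genes 7 were lower (12.3%, against 2.21% of all genes) and 0 higher, with a median of -0.053. After array median centring 3 were lower (5.26%, against 1.09% of all genes), with a median of -0.004. The kinases, pseudogenes and other genes that share the Rps and Rpl symbols were left out after they had been seen in the list. Rpl24 of the large subunit lay at 10.97, 11.24 and 11.34 in BACHD and at 11.24, 11.58 and 11.71 in WT (-0.34, SE 0.0941). Rps29 of the small subunit was at -0.51 (SE 0.178). Of 66 subunits of the mitochondrial respiratory chain 8 were lower (12.1%, against 2.21% of all genes) and 0 higher. Their median of -0.025 was close to that of all genes, -0.027, and after centring 3 were lower (4.55%, against 1.09%) and the median turned to 0.025, with 0.023 over all genes. They were Sdhb of complex II (-0.17, SE 0.0539), Ndufa9, Ndufa1 and Ndufb7 of complex I, Cox6b1 and Cox4i1 of cytochrome c oxidase, and Atp5l and Atp5k of ATP synthase. Atp5l had the largest of these differences, -0.33 (SE 0.119), with 10.18, 10.42 and 10.56 against 10.44, 10.69 and 11.24. Without WT replicates 1 and 2, 3 genes of either list were lower, where 0.542% of all genes were. Of 33 proteasome subunits 2 were lower, Psmb7 (-0.17, SE 0.0770) and Psmd4 (-0.12, SE 0.0562), and 0 after centring. The calls of Sdhb and Cox6b1 were lost after centring, and those of Psmb7 and Psmd4 in 9 of 12 fits with 1 array left out.

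Few genes of hypothalamic signalling were called. Scg5, the 7B2 protein that assists the prohormone convertase PC2, lay at 11.33, 11.39 and 11.42 in BACHD and at 11.46, 11.54 and 11.64 in WT, with no overlap and a difference of -0.17 (SE 0.0487), a call that was lost after array median centring. Of 16 measured genes of the neurokinin and reproductive axis 1 was lower and 1 higher (6.25% each). Over all genes 2.21% were lower and 0.632% higher. Tacr3 was the lower gene, and Npvf, the precursor of the RF-amide peptides that restrain gonadotropin release, was the higher gene. Npvf lay at 8.10, 8.50 and 8.89 against 7.97, 8.26 and 8.34 (0.34, SE 0.135), with BACHD replicates 2, 3 and 5 the highest at 8.86, 8.89 and 8.66. Tac2, the gene of the ligand of Tacr3, was at 0.02, and Kiss1, the kisspeptin gene, at 0.07, neither called. Grp, gastrin-releasing peptide, lay at 8.47, 8.82 and 9.18 against 8.26, 8.50 and 8.79 (0.33, SE 0.126). Of 21 neuroendocrine and clock peptide genes Grp was the 1 higher and Scg5 the 1 lower (4.76% each). The call of Npvf was lost in 5 and that of Grp in 3 of 12 fits with 1 array left out.

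None of 17 appetite peptide genes and none of 20 appetite receptor genes was called. Hcrt, the orexin precursor, was at 0.10 (SE 0.0753), Cartpt, the CART peptide precursor, at 0.26 (SE 0.145), and Ghrh, growth hormone-releasing hormone, at 0.25 (SE 0.154). Th, the rate-limiting enzyme of dopamine synthesis, was at 0.01 (SE 0.113). Vip, a peptide of the suprachiasmatic nucleus, varied widely, at -0.05 (SE 0.353). The antigen presentation genes H2-Aa and Cd74 were at 0.09 (SE 0.128) and 0.05 (SE 0.0902). None of 17 measured genes of the major histocompatibility complex and complement was called.

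At glutamatergic synapses, 21 of 22 receptor genes had differences below zero, as did 64.5% of all genes, with a median of -0.069 that shrank to -0.019 after array median centring. The 1 called (4.55%, against 2.21% lower over all genes) was the delta receptor gene Grid1 (-0.15, SE 0.0690). Of 33 scaffold and signalling genes 1 was lower (3.03%), Grk3, a kinase that desensitizes G protein-coupled receptors (-0.20, SE 0.0678). None of 11 glutamate transporter and enzyme genes was called. Slc17a7 among them, a vesicular glutamate transporter that the study names, varied widely, at -0.46 (SE 0.5745). None of 20 genes of the GABA system was called. Of 26 monoamine genes 1 was lower (3.85%), the serotonin receptor gene Htr7 (-0.23, SE 0.0992). Each of these shares is a single gene. The calls of Grid1 and Htr7 were each lost in 7 of 12 fits with 1 array left out, and that of Grk3 without WT replicates 1 and 2. Mouse Htt was at 9.98, 10.20 and 10.27 in BACHD and 10.00, 10.21 and 10.46 in WT (-0.07, SE 0.0861; 95% interval -0.26 to 0.11). No source used here says whether its probes also read the human transgene, so that this gene does not check the genotype. None of 23 measured genes of huntingtin, its partners and the BDNF pathway was called.

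Hormone-responsive and lipid genes gave few calls. Of 11 genes of the thyroid hormone response 2 were lower (18.2%, against 2.21% of all genes) and 1 higher (0.632% of all genes were). The hormone-induced transcription factor gene Klf9 (-0.16, SE 0.0551) and the corepressor gene Hr (-0.21, SE 0.0888) were lower. Dio3, the deiodinase that inactivates thyroid hormone, was higher (0.19, SE 0.0767). Klf9 lay at 10.23, 10.28 and 10.34 in BACHD and at 10.32, 10.45 and 10.55 in WT. Of 17 glucocorticoid receptor and target genes 1 was lower, Tsc22d3, a glucocorticoid-induced gene (-0.25, SE 0.0816). Of 22 genes of fatty acid elongation and desaturation 1 was higher, Scd3, a stearoyl-CoA desaturase (0.19, SE 0.0823), and 5 lay below zero. Among 33 acyl-CoA genes Acss1 and Acot5 were higher and Acot8 lower (-0.17, SE 0.0711). Of 23 cholesterol genes the sterol sensor gene Insig1 was lower (-0.23, SE 0.104). Klf9, Hr, Acot8 and Insig1 lost their calls after array median centring. With 1 array left out the call of Dio3 was lost in 4 and that of Scd3 in 7 of 12 fits.

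Markers of tissue next to the hypothalamus differed between single arrays. The 17 hypothalamus markers measured had mean levels of 9.25 to 9.74 in BACHD and 9.38 to 9.68 in WT, and none was called. All 13 thalamus markers were below zero, with a median of -0.268 and none called, and their mean ran from 8.00 to 9.74 in BACHD and from 8.25 to 9.61 in WT. The median was -0.060 without WT replicates 1 and 2. The mean of 12 choroid plexus and ependyma markers was 8.71 in WT replicate 4 and 7.502 to 7.763 on all other arrays. Ttr, the main secretory product of the choroid plexus, had the widest spread of these, with 8.36, 9.21 and 10.99 in BACHD and 8.997, 9.92 and 13.72 in WT (-0.99, SE 0.707). The mean of 11 pituitary markers was 9.28 in WT replicate 5, 8.40 in BACHD replicate 4 and 6.91 to 7.72 on the others.

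Of 12 oligodendrocyte markers none was below zero, with a median of 0.061 and none called. Of 8 markers of their precursors 1 was lower (12.5%, against 2.21% of all genes), Vcan, a matrix proteoglycan (-0.26, SE 0.0989). None of the astrocyte, microglia, endothelial, pan-neuronal, striatum, cortex and tanycyte markers was called. With the thalamus score as a covariate, 330 genes were lower and 115 higher, against 441 and 126. The part of thalamus, choroid plexus or pituitary tissue in the differences above was not tested otherwise, and in whole tissue fewer cells of a type and less RNA per cell cannot be told apart.

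**Figure D4:**
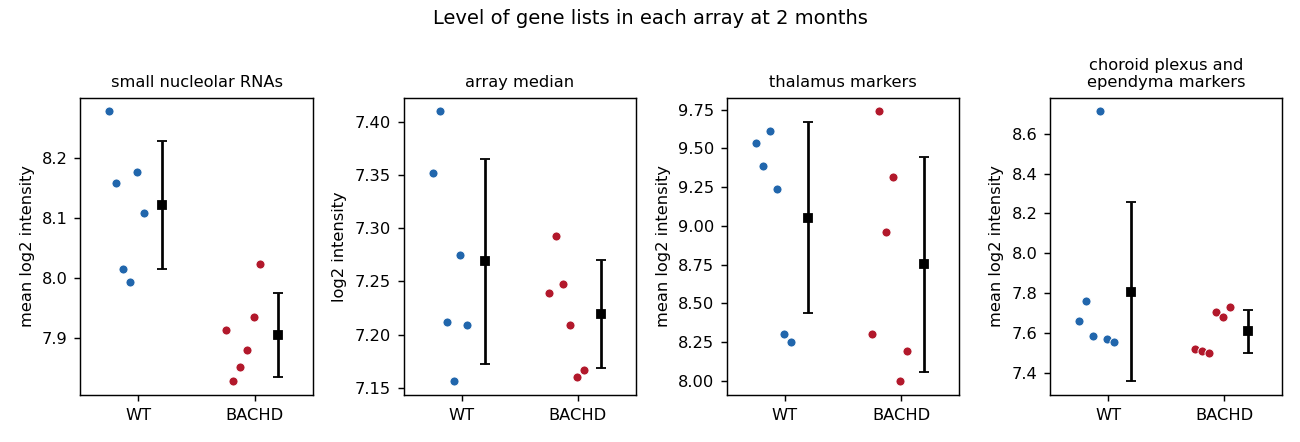
Values of each of the 12 arrays for the mean log2 level of snoRNA genes, the median over all probe sets, and the mean log2 levels of thalamus and of choroid plexus markers, in BACHD and WT. WT replicates 1 and 2 have the highest array medians (7.35 and 7.41), WT replicate 4 stands out for choroid plexus markers (8.71), and the snoRNA levels of BACHD lie mostly below those of WT.

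The 10-month arrays, 5 of BACHD and 3 of WT with controls of their own, were used to see which differences recurred in older mice. They appear to have been normalized apart from the 2-month arrays, so only differences were compared. At 10 months 310 genes were lower (1.55%) and 476 higher (2.39%), again none after adjustment. The difference between ages, tested as an age by genotype term over all 20 arrays, was past an unadjusted p of 0.05 in 446 genes (2.24%) and past an adjusted p in 0. Across 19,937 genes, which are not independent, the differences at the 2 ages correlated at a Pearson r of 0.041.

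Tacr3 was lower at both ages. It differed by -0.60 at 10 months (unadjusted limma p 0.000586) and by -0.40 at 2 months, and the change between ages of -0.20 was not past the threshold (unadjusted p 0.165). Of the 10 lower genes with the smallest p at 2 months, Tacr3 was the 1 with p under 0.05 in the same direction at 10 months, and of the 10 higher genes 0 were. Over all calls, 12 genes were lower at both ages (2.72% of the 441 and 3.87% of the 310) and 7 were higher at both (5.56% of the 126 and 1.47% of the 476). Grp was among the latter, with 0.33 and 0.37, and Vcan among the former, with -0.26 and -0.13, where the 2-month call of Vcan was lost after centring.

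Calls in opposite directions at the 2 ages were made for 7 genes, named after their values were seen. They were Rpl24, Fabp7, Tcl1b2, Krt6a, Cdon, Ifit3 and Bcl6b. Picking genes by opposite calls nearly fixes a small p of the age by genotype term. The terms of Fabp7 and Ifit3 are therefore no further evidence. Fabp7, a fatty acid-binding protein of astroglia and precursor cells, was at 0.33 at 2 months and -0.35 at 10 months, with an age by genotype term at an unadjusted p of 0.000898. The interferon-induced gene Ifit3 was at -0.24 and 0.37, with a term at an unadjusted p of 0.00123, and its 2-month call was lost in 7 of 12 fits with 1 array left out. Serpinb6b was at -0.33 and 0.13, with the term at an unadjusted p of 0.000158. Npvf was at 0.34 and -0.38, and its term had an unadjusted p of 0.00823. Serpinb6b and Npvf were named for their values at 2 months, which enter their terms.

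The snoRNA genes did not show the same pattern at 10 months, where 0 of 51 were lower and 2 higher, with a median of 0.006. The age by genotype term was past an unadjusted p of 0.05 in 12 of the 51, all 12 in the positive direction and 0 after adjustment. Over all genes it was past this threshold in 446 of 19,937 (2.24%), of which 350 were positive. The class was noticed in earlier results of these data, and its 2-month differences enter this term, so the 12 are no separate evidence. Over all probe sets the majority sign of the term turned with array median centring. Snora33 was at 0.04 and Snord118 at 0.06 at 10 months.

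**Figure D5:**
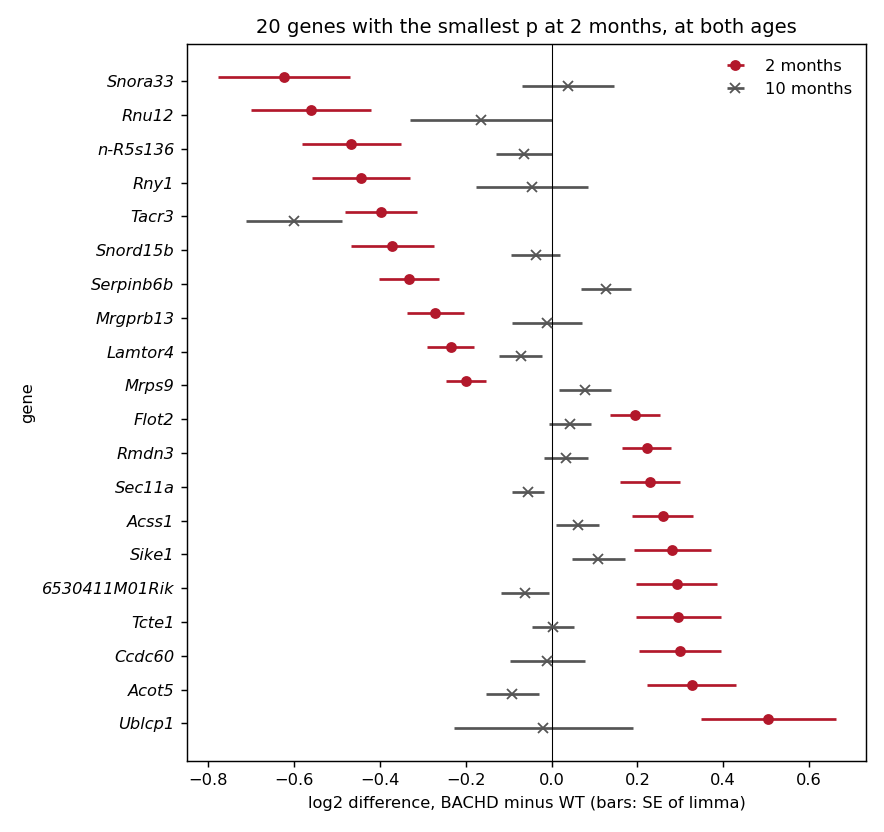
Log2 difference BACHD minus WT with its SE for 20 named genes at 2 months (6 and 6 arrays) and at 10 months (5 and 3 arrays). Tacr3 lies below zero at both ages (-0.40 and -0.60), whereas Serpinb6b and Mrps9 lie below zero at 2 months and above it at 10 months.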

How the data were processed

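Total RNA of each hypothalamus was labelled with biotin and hybridised to Affymetrix mouse gene arrays. As deposited by the authors, each value is the log2 signal of a probe set after RMA, which subtracts background, equalizes the distribution of probe signals over arrays and summarizes the probes of a set. The submitters' notes name R 4.1.1, affy 1.70.0 and limma 3.48.3. The medians of the summarized values still differed between arrays. Probe set values shared exactly between arrays, up to 17 for pairs of the 12 arrays and 0 with other arrays of the series, point to an RMA run of the 2-month arrays on their own. Raw files were not processed again, no probe set was filtered out, and 0 columns of per-sample values lay outside the labelled samples.

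Symbols came from the platform table, which gives 1 symbol for 21,640 probe sets, several for 1,321 and none for 11,799. Of the former, 21,553 matched the reference annotation by Entrez identifier. BACHD and WT were compared in R 4.3.3 with limma 3.58.1 (lmFit and eBayes at default settings), with Benjamini-Hochberg adjustment over all probe sets, two-sided, and the same steps were tested on simulated data. For single genes an exact permutation test of the 12 arrays, two-sided, was added. The number of arrays limits the precision. The group sizes of the study match 1 mouse per array, and litters are not identified. The p values therefore set a difference against the spread between these mice.

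Named genes were the 10 lower and 10 higher genes with the smallest p, 8 per direction among probe sets at or above the median level, the 5 per direction with the largest difference at p under 0.05, genes the study names, Htt, and up to 4 members with the smallest p of each list. The comparison, 15 cell type lists, 24 pathway lists and 10 gene families were chosen with earlier results of these data known. Alternatives were array median centring, repeated quantile normalization, a filter on low values, array weights, trend and robust eBayes, a replicate block, a joint fit of both ages, marker scores as covariates and leaving out each array. Those chosen after seeing the data were leaving out WT replicates 1 and 2 together, the array median or the snoRNA score as a covariate, the biotype classes, and families trimmed of host genes, kinases and pseudogenes.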

Additional observations from a re-analysis of the deposited data

Results flagged for a closer look

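A sample was taken as standing apart when its gap to the nearest array of its group exceeded Dixon's 95% critical value, and chance gives this in about 1 of 20 groups. It occurred in 25 of 530 groups of 6 arrays (4.72%), all on the log2 scale.

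Genes known from the choroid plexus and the pituitary were among them. In WT replicate 4 the choroid plexus genes Kcne2 (6.105), Folr1 (8.612) and Kl (9.875), and the choroid plexus and ependyma list (8.711), were higher than on the other WT arrays. In WT replicate 5 the pituitary genes Cga (11.99) and Gnrhr (6.896) and the pituitary list (9.279) were higher, while the astrocyte gene Aldoc (13.19) and the prodynorphin gene Pdyn (7.773) were lower. In BACHD replicate 4 Gnrhr (5.673) and the thyroid hormone-binding crystallin gene Crym (8.614) were higher.

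BACHD replicate 2 was low for the appetite-suppressing precursor Pomc (6.737), the glutamate receptor gene Grm8 (8.029) and the clock gene Per3 (8.811), and high for the neuronal tubulin gene Tubb3 (10.86). BACHD replicate 1 was high for Gas5 (9.851), a snoRNA host gene, and low for the circadian clock list (9.524). In BACHD replicate 3 Uprt was low (10.19, with the next array at 10.4).

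WT replicate 1 was low for Npy (9.822), the orexigenic neuropeptide Y, and high for the proteasome gene Psma7 (9.395). WT replicate 2 was high for Psmd4 (9.84), Rpl23a (10.87) and the keratin-associated protein list (6.071). WT replicate 3 was low for Sdhb (10.68), and WT replicate 7 for the endothelial gene Pecam1 (7.175).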

How the results depend on the processing

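No probe set passed the adjustment under any alternative. The 1422 probe sets with an unadjusted limma p under 0.05 became 773 with a filter at the median level, 2449 in a joint fit of both ages, 855 without WT replicates 1 and 2, 604 with the snoRNA score as a covariate, and 890 (without WT replicate 1) to 2836 (without WT replicate 4) with 1 array left out. The 20 lower snoRNA genes became 16 to 25 with 1 array left out. They became 12 without WT replicates 1 and 2, where 0.542% of all genes were lower. With their own score as a covariate, which by construction removes what they share, they became 0. The 909 probe sets of the age by genotype term became 455 with the filter, and 679 to 1563 with 1 array left out, the latter without WT replicate 4 at 2 months. Under centring that term had 386 positive and 504 negative calls, against 718 and 191. The cause of these shifts was not tested. Of 80 named genes with a call, 55 kept it in every fit with 1 array left out, 61 after centring, 72 after quantile normalization, 48 without WT replicates 1 and 2 and 5 with the snoRNA score as a covariate, where 69 fell short of the threshold and 6 turned. Among these 80 only the snoRNA score covariate turned directions, of Snord118 to 0.0704, Insig1 to 0.00362, Ndufa9 to 0.00668, Tsc22d3 to 0.0412, Ifit3 to 0.0403 and Snhg17 to 0.0128. Because this score almost separates BACHD from WT, adding it widens the error of any group difference. The losses under it therefore say little about single genes, and the cause of the turns was not tested.

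Replicate numbers did not pair the arrays. Deviations of arrays with the same number correlated at -0.311 to 0.28, and 1 of 6 arrays correlated best with its own number. With the replicate number as a block, 1602 probe sets and 22 lower snoRNA genes were called, and 1085 probe sets for the age by genotype term.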

Other observations

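Of 11,799 probe sets without a symbol 4.7% were lower and 1.31% higher on the deposited values, against 2.42% and 0.628% of the 21,640 with 1 symbol. After array median centring these shares were 3.26% and 2.43% against 1.26% and 1.87%, and the difference between the kinds of probe set was not tested. On the deposited values the share of lower calls fell from 4.7% in the fifth of probe sets with the lowest mean level to 2.22% in the fifth with the highest.

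Gene families of the olfactory system are read at low levels in this tissue. Of 1027 olfactory receptor genes 42 were lower (4.09%, against 2.21% of all genes) and 2 higher. After array median centring 26 were lower (2.53%, against 1.09%) and 5 higher, and without WT replicates 1 and 2, 10 were lower (0.974%, against 0.542%) and 6 higher. Many of these genes are near copies of each other. Of 167 vomeronasal receptor genes 2 were lower (1.20%), and of 350 zinc finger protein genes 5 were lower (1.43%) and 3 higher. Of 364 solute carrier genes 9 were lower (2.47%) and 1 higher. Over all genes 2.21% were lower and 0.632% higher.

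Clock, stress and immune genes gave few calls. None of 17 circadian clock genes was called, and 15 differences lay below zero, as did 64.5% of all genes. Their median of -0.050 went to -0.001 after array median centring. Of 21 chaperone genes 1 was higher (4.76%, against 0.632% of all genes), the small heat shock protein gene Hspb1, by 0.27 (SE 0.106). None of 18 immediate early genes was called. Of 27 type I interferon response genes Ifit3 was the 1 called, as lower (3.70%, against 2.21% of all genes).

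The widest differences without a call were those of Kcnj13, a potassium channel gene of the choroid plexus, at -1.002 (SE 0.629), Ttr at -0.99 (SE 0.707) and Ppp4r2, a regulatory subunit of protein phosphatase 4, at 0.86 (SE 0.408). They were named after their values were seen.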
